A study of Mus musculus with 16 samples.

Results

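Whole kidneys of 4 male (XY) and 4 female (XX) control mice were compared gene by gene, over autosomal protein-coding genes alone, so that genes carried on the X or Y chromosome did not enter. The deposited table held 30277 genes, of which 17286 were autosomal and protein-coding. Of these, 11516 passed a filter on low values and were tested. The 8 control libraries were part of a series of 16 polyadenylated RNA libraries in 4 groups of 4, and the remaining 8 came from male and female Kl/Kl mice, homozygous for an allele of the Klotho gene Kl and labelled as having renal failure, at ages of 46 to 59 days. The control mice were labelled as having healthy renal function. Male controls 1 and 2 were +/Kl and 47 days old, male control 3 was +/+ and 46 days old, and male control 4 was +/+ and 48 days old. All 4 female controls were +/Kl, at ages of 47, 47, 57 and 48 days. Every animal was of the C57Bl/6J strain, and its kidney was frozen after perfusion. Each library was labelled as a separate sample, so the p-values below measure the spread between samples. For single genes that spread was pooled over the 4 groups of all 16 libraries, Kl/Kl animals included. Heterozygosity was not balanced between the sexes, since the wild-type animals were all male.

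In mice the proximal tubule, which reabsorbs most of the filtered glucose, amino acids and phosphate and secretes organic anions and drugs, is the main site of sex differences in renal gene expression. Testosterone raises there the transcripts of many enzymes and carriers, above all in the last segment of the tubule. Growth hormone, released in a different daily pattern in each sex, and prolactin act through receptors that signal to STAT5, and oestrogen acts through its own nuclear receptors.

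Values are TPM as the authors deposited them, rescaled between libraries by the median ratio over autosomal protein-coding genes. The deposited TPM were computed on the length of a gene from start to end, introns included, so they rank samples for 1 gene but should not be used to rank 1 gene against another. The reads inferred from these values numbered 17101876 to 20103585 in the male and 8208543 to 14502861 in the female libraries, without overlap. The scale factors were 0.963 to 1.17 in males and 0.754 to 0.899 in females, also without overlap. Female control 3, the oldest control and the one with the fewest reads, had 7.06% of its TPM in ribosomal RNA, against 0.484% to 1.12% in the other control libraries. It also had the lowest summed level of first-segment proximal tubule markers, 36.9 TPM, against 83.6 to 87.0 TPM in the other females. The sheet numbers in the library names run over the same range in the 8 male and again in the 8 female libraries of the series, and the sequencing run is not given in the sources used here, so sex and run cannot be told apart. Replicates 1 and 2 of each sex carry 1 series of animal names and replicates 3 and 4 another. Xist, transcribed from the inactive X chromosome, had 0.0604 to 0.173 TPM in male and 10.6 to 18.2 TPM in female controls, and the Y-linked Ddx3y had 2.17 to 2.23 TPM in male and 0 to 0.00648 TPM in female controls, as the labels state.

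Differences between the sexes were widespread. At an adjusted p under 0.05, 4639 of 11516 tested genes differed between male and female controls, which was 40.3% of the genes tested. Of these, 2573 were higher in males (22.3% of the genes tested) and 2066 were lower in males (17.9%). The 4 male and 4 female values did not overlap for 4307 genes (37.4%). Most differences were modest, with a median size of 0.57 on the log2 scale among the genes called. A difference of at least 1 on the log2 scale was found for 342 genes higher and 278 genes lower in males, one of at least 2 for 61 and 32 genes, and one of at least 3 for 18 and 7 genes. The split by direction depended on the scaling: on the deposited TPM with no rescaling, 4798 genes were higher and 629 lower in males, and the median difference over all genes was then 0.30, against 0.02 after rescaling. With the 8 control libraries alone in the fit, 3687 genes were called, 2078 higher and 1609 lower in males. Without female control 3, 4990 genes were called, and with heterozygous controls alone, which leaves 2 males, 2525. Among the 124 genes called and named in the text, that fit ended the calls of Kl, Ghr, Cyp4a14, Akr1c14, Gusb, Fgfr4, Ces1g, Ndufs1, Slc9a3, Psmb8, C1qa, Pck1, G6pc, Slc37a4, Slc5a12, Vdr, Pdzk1, Upk3a, H4c12, Ubl5b and Ubl5c. Unscaled values ended those of Hsd11b2, B2m, Sox9, Upk3a and Psmb8, and array weights those of Socs2, Psmb8, C1qa, Nat8f5, Pck1, G6pc, Slc37a4, Slc5a12, Trpv5, Upk3a and H4c12. Removing the trend on transcript length and GC ended those of B2m, C1qa, Gsta1, Vdr, Trpv5, Upk3a and H4c12, and a pseudocount of 1 or limma voom on inferred reads that of Ces1g. Within replicates 1 and 2 and within replicates 3 and 4 taken apart, 4636 of the 4639 genes kept their direction. The genes were called on these same libraries, so a shared direction was largely set in advance. For the 3842 called genes without overlap between the sexes it was certain.

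The gene with the largest male excess on the scale of log2(TPM + 0.1) was Acsm3, which encodes a mitochondrial medium-chain acyl-CoA synthetase. It lies at chromosome 7, bases 119360146 to 119386737 of mm39. This rank depends on the added 0.1 TPM, which lowers the differences of genes near 0 in females. Over the alternative settings the log2 difference reached 9.67 for Cyp2j13 and 8.84 for Slco1a1, against 8.11 for Acsm3. The genes with the largest differences in each direction were taken only where the sexes did not overlap, so that separation was set in advance. Acsm3 had 23.8, 29.7, 24.8 and 20.2 TPM in the 4 male controls and 0.201, 0.0988, 0.0411 and 0.0432 TPM in the 4 female controls. The male values lay far above all female values, and the log2 difference was 7.04 ± 0.88 (SE, n = 4 each, adjusted p = 5.17e-05). Slc7a13, an amino acid carrier of the last proximal segment (chromosome 4, bases 19818725 to 19842219), had 34.1, 31.5, 29.7 and 21.7 TPM in males and 0.402, 0.548, 0.108 and 0.361 TPM in females. Again the groups did not overlap, and the difference was 6.10 ± 0.60 on the log2 scale (adjusted p = 9.78e-06). In RNA of a whole kidney, fewer cells of a type and less RNA per cell cannot be told apart, for this gene as for those below. Ugt2b37, a UDP-glucuronosyltransferase that conjugates steroids and drugs, had 4.4, 2.7, 13.9 and 7.33 TPM in males and 0.0409, 0.0567, 0.0819 and 0.0221 TPM in females. Slco1a1, an organic anion transporting polypeptide, had 3.67, 3.34, 8.76 and 3.07 TPM in males and 0.00846, 0.0068, 0.0112 and 0.00839 TPM in females. For both genes male control 3 was the highest library, and every female library was at or below 0.0819 TPM; the log2 differences were 5.34 ± 0.56 and 5.33 ± 0.55 (SE, adjusted p = 1.69e-05 and 1.47e-05).

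Several genes with a large male excess encode cytochromes P450. Cyp4b1, which oxidises fatty acids and foreign compounds, had 88.4, 64.4, 88.5 and 69.8 TPM in males and 2.64, 2.09, 2.77 and 3.53 TPM in females, with a log2 difference of 4.78 ± 0.56 (adjusted p = 3.48e-05). Cyp2e1, which oxidises ethanol and small organic molecules, had 63.7, 34.8, 97.2 and 55.8 TPM in males and 4.81, 4.55, 2.45 and 5.39 TPM in females (3.80 ± 0.34, adjusted p = 6.66e-06). Neither gene overlapped between the sexes, although the male values of Cyp2e1 spread over a wide range. Cyp2j13 differed by 5.11, with 2.61 to 5.17 TPM in males and 0.00157 to 0.00671 TPM in females. Cyp4a12a, a producer of the vasoactive lipid 20-HETE in male mouse kidney, had 0.517, 1.04, 9.85 and 0.418 TPM in males and 0.0235, 0.0152, 0.00786 and 0.0113 TPM in females. The wild-type male control 3 stood well above the other males, and Cyp4a12a is 98.2% identical to Cyp4a12b over the aligned transcript, so reads could be split between the copies. Among the 15 genes with the largest male excess were also Ugt2b38 (3.82), Nat8f2 (3.49), the flavin monooxygenase gene Fmo5 (3.42), the protease inhibitor gene Pzp (3.37), the organic anion carrier gene Slc22a30 (3.31) and the carboxylesterase gene Ces1f (3.26), all as log2 differences.

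Rsc1a1 was a special case. It was listed with 1.85, 2, 1.22 and 0.401 TPM in males and 0 reads in every female control. Against a floor of 3 reads per female library, the male mean was at least 7.19-fold higher. Rsc1a1 lies within the gene Ddi2 on the same strand, and its transcript is 100% identical to the Ddi2 transcript, so its reads are not separable by sequence. The Kl/Kl animals showed the same pattern, with 17 to 70 reads in the 8 male libraries of the series and 0 in the 8 female libraries. Gm26377 inside Eef1a1 went the other way, with 0 reads in the 8 male and 486 to 3058 reads in the 8 female libraries. Gm44987 inside Gga2 had 0 reads in the 8 male and 12 to 115 reads in the 8 female libraries. All 3 lie within another gene on the map, and whether the male and female tables were counted alike was not tested.

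**Figure D1:**
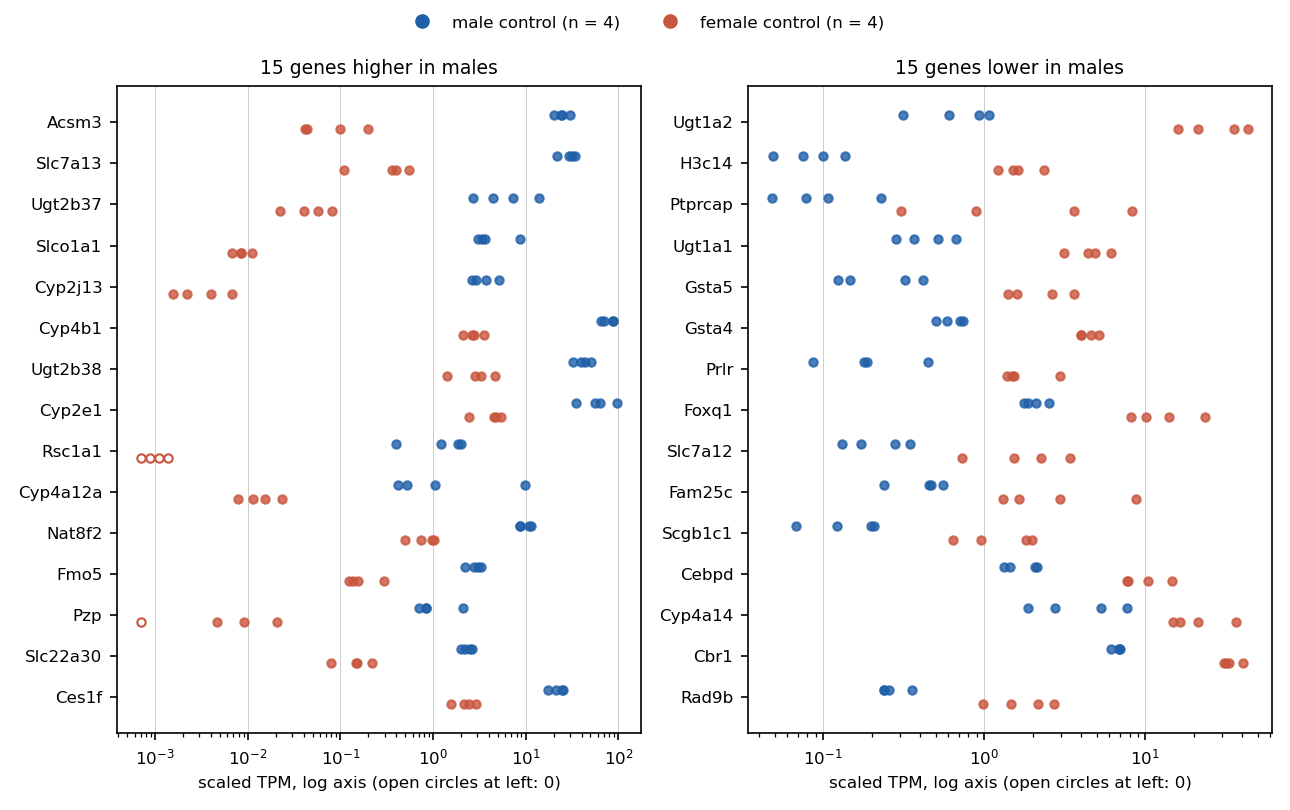
Rescaled TPM (log axis) of the genes with the largest differences in each direction, 1 point per library, with male controls above female controls for each gene and open circles for 0. Genes were taken for this figure only if the 4 male and 4 female values did not overlap, so the separation shown was set by that rule.

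The strongest male-low gene was Ugt1a2, a glucuronosyltransferase of the bilirubin-conjugating family at chromosome 1, bases 88128323 to 88146720 of mm39. Ugt1a2 had 0.934, 1.07, 0.312 and 0.603 TPM in males and 43.6, 35.5, 16 and 21.3 TPM in females. All male libraries were below all female ones, with a log2 difference of -5.14 ± 0.62 (adjusted p = 3.94e-05). Ugt1a1, which conjugates bilirubin, was lower in males at a log2 difference of -3.09 (0.285 to 0.673 TPM in males, 3.13 to 6.1 TPM in females). The gene models of the Ugt1a locus overlap and share their last exons, so the reads of these exons cannot be assigned to 1 member. Gsta5 (-2.77) and Gsta4 (-2.63), alpha-class glutathione transferases, were lower in males. Gsta4, which detoxifies lipid peroxidation products, had 0.743, 0.712, 0.504 and 0.588 TPM in males and 3.98, 4.63, 4 and 5.16 TPM in females, well apart.

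Prlr, the prolactin receptor (chromosome 15, bases 10177324 to 10349267), had 0.179, 0.0864, 0.186 and 0.446 TPM in males and 1.49, 1.52, 2.94 and 1.38 TPM in females. Female control 3 was the highest library and the sexes did not overlap; Prlr fell by 2.62 ± 0.32 on the log2 scale in males (adjusted p = 4.43e-05). Slc7a12, an amino acid carrier, had 0.13, 0.171, 0.281 and 0.347 TPM in males and 2.27, 1.54, 3.43 and 0.733 TPM in females, again apart (-2.52 ± 0.36, adjusted p = 1.22e-04). Cyp4a14, a fatty acid hydroxylase, had 5.29, 7.7, 1.87 and 2.74 TPM in males and 21.3, 16.4, 36.7 and 14.8 TPM in females (-2.42 ± 0.56, adjusted p = 0.00331). Every female exceeded every male for all 3 genes, which was a condition for taking them. Transcription factor genes among the 15 with the largest male deficit were Foxq1 (-2.59) and Cebpd (-2.44), and the carbonyl reductase gene Cbr1 (-2.32) belonged there too. The others were Fam25c (-2.47), Scgb1c1 (-2.46), Rad9b (-2.29), the histone gene H3c14 (-3.22) and Ptprcap (-3.19), on the same scale. H3c14 is 99.9% identical to another histone gene, Hist2h3c2, over part of its transcript. Ptprcap lies inside Coro1b and ranged widely, with 0.108, 0.0779, 0.048 and 0.227 TPM in males and 0.305, 0.889, 8.25 and 3.64 TPM in females.

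The promoters of the genes with the largest differences were read from RefSeq on GRCm38.p6, from 250 bases before to 50 bases after the annotated start, because hormone receptors and STAT5 act through DNA motifs. Shown are Acsm3 and Ugt2b37, high in males, and the neighbours Ugt1a2 and Ugt1a1, low in males; capitals mark a motif.
Acsm3 (chr7:119760673-119760972, plus strand): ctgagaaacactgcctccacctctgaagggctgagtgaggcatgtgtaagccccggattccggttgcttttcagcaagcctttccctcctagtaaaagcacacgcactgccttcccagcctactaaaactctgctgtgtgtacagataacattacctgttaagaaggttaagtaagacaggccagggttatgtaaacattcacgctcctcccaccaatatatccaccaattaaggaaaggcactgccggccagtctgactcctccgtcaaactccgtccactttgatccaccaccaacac
Ugt2b37 (chr5:87254739-87255038, minus strand): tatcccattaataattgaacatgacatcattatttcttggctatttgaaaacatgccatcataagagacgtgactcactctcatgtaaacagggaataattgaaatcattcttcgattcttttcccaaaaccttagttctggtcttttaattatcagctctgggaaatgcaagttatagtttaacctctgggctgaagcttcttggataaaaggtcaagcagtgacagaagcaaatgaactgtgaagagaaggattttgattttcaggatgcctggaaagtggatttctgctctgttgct
Ugt1a2 (chr1:88200361-88200660, plus strand): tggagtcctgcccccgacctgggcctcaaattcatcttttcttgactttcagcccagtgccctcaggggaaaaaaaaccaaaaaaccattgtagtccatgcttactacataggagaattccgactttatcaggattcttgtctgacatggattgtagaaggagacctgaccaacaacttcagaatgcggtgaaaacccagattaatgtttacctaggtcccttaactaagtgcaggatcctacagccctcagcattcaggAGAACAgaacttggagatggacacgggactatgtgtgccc
Ugt1a1 (chr1:88211709-88212008, plus strand): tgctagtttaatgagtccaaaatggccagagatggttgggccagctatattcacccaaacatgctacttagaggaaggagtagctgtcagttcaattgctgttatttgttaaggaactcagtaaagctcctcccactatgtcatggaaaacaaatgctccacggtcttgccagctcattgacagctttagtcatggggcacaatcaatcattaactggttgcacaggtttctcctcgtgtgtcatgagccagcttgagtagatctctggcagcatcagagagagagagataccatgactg
These and the promoters of Slco1a1 and H3c14 were searched on both strands for TGTTCT, the half-site of steroid hormone receptors such as that for glucocorticoid, and for TTCNNNGAA, the STAT motif. The 6 windows held 1 match, a half-site of Ugt1a2 on the minus strand downstream of the start, and 0 STAT motifs. Over all 31396 promoter entries of this length, 19% held the half-site and 8.35% the STAT motif. Of the 15 most male-high genes, 12 had an entry, and 2 of these held the half-site and 1 the STAT motif. Of the 15 most male-low genes, 8 had an entry, and 2 held the half-site and 1 the STAT motif. A match is a description of letters in a short window.

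Receptors for the hormones that differ between the sexes were not uniformly changed. Of 15 hormone receptor and nuclear receptor genes tested, 6 were higher and 2 lower in males, against 22.3% and 17.9% of all genes tested. Their median log2 difference was 0.31, against 0.02 over all genes. Ghr, the growth hormone receptor, had 2.17, 2.18, 1.82 and 2.04 TPM in males and 1.51, 1.25, 1.21 and 0.817 TPM in females, without overlap (0.75 ± 0.24, adjusted p = 0.0209). Without female control 4 its adjusted p was 0.0704. Hnf4a, the transcription factor that maintains the proximal tubule state, rose by 1.06 (adjusted p = 4.50e-05) and the bile acid receptor gene Nr1h4 by 1.07 (adjusted p = 7.42e-04), both without overlap between the sexes. The glucocorticoid receptor gene Nr3c1 differed by -0.18 (adjusted p = 0.313).

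The oestrogen receptor gene Esr1 did not pass the filter, with 0.0470, 0.0286, 0.0524 and 0.0419 TPM in males and 0.0277, 0.0181, 0.0340 and 0.0151 TPM in females. Downstream of the growth hormone and prolactin receptors, 1 of 16 tested genes was higher and 4 were lower in males (median -0.20), against 22.3% and 17.9% of all genes tested; on unscaled values the balance was turned, with 5 higher and 2 lower (median 0.13). Socs2, the feedback inhibitor of growth hormone signalling, was lower at a log2 difference of -1.31 ± 0.36 (adjusted p = 0.00993), with 0.405, 0.39, 0.438 and 0.889 TPM in males and 1.16, 1.42, 2.98 and 0.741 TPM in females. The highest male, control 4, lay above the lowest female, control 4. Igf1, a growth factor that growth hormone induces, was lower at a log2 difference of -0.77 (adjusted p = 0.003). Cish, which STAT5 also induces, did not pass, at -1.13 ± 0.44 (adjusted p = 0.0506).

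Kl itself differed by sex. Klotho is the co-receptor through which the phosphate hormone FGF23 acts on the tubule. Kl had 10.6, 8.03, 10.7 and 9.38 TPM in males and 4, 6.37, 2.98 and 2.69 TPM in females. Every male exceeded every female, and the log2 difference was 1.32 ± 0.39 (adjusted p = 0.0151). It was 0.86 within replicates 1 and 2, where all animals were +/Kl, and 1.79 within replicates 3 and 4, where the males were +/+ and the females +/Kl. With heterozygous controls alone in the fit, Kl no longer passed (adjusted p = 0.0907). In the Kl/Kl animals, where Kl was low in both sexes, the difference was 1.61 on the same scale.

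Genes known as androgen-responsive or male-biased in mouse kidney were nearly all higher in males: 18 of 20 tested rose and 0 fell, against 22.3% and 17.9% of all genes tested, with a median log2 difference of 2.47 against 0.02 over all genes. This list was drawn from knowledge of sex differences in this tissue, and with earlier results of these data known. Its lean to males is therefore a description and not an independent test. Besides the genes above, it held Odc1, the first enzyme of polyamine synthesis, with 94.8, 63.1, 106 and 55.2 TPM in males and 20.4, 16.2, 33.4 and 12.5 TPM in females (1.99 ± 0.42, adjusted p = 0.00183). Cyp7b1, which hydroxylates oxysterols and steroids, had 0.874, 0.737, 1.05 and 0.51 TPM in males and 0.0143, 0.0138, 0.0142 and 0.00732 TPM in females (2.95 ± 0.34, adjusted p = 3.45e-05). Both genes were apart in all libraries. Gusb, the beta-glucuronidase gene long used as an androgen readout, rose by 0.43 (adjusted p = 0.00481). Kap, the kidney androgen-regulated protein gene, did not pass. It had 7309, 5885, 5717 and 5362 TPM in males and 1996, 2641, 6112 and 1959 TPM in females (1.10 ± 0.57, adjusted p = 0.136). Female control 3 lay within the male range and the other females below it; without that library the difference was 1.47 (adjusted p = 0.0554). Kap passed under 5 of 33 alternatives, and with the trend on transcript length and GC removed its difference was 1.69 (adjusted p = 0.0121).

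Genes known as female-biased in mouse kidney were split. Of 13 tested, 5 were lower in males and 2 higher, where 17.9% of all genes tested were lower and 22.3% higher. The list had a median log2 difference of 0.02. Those lower in males were Prlr, Slc7a12, Cyp4a14, Abcc3, an exporter of conjugated bile acids (-2.30 ± 0.37, adjusted p = 2.87e-04), and Hao2, a peroxisomal hydroxyacid oxidase (-1.47 ± 0.29, adjusted p = 0.00114). Abcc3 had 0.0324, 0.0282, 0.0299 and 0.0373 TPM in males and 0.444, 0.492, 1.29 and 0.293 TPM in females, and every female exceeded every male. Fmo5 and Slc22a28 (2.67) went against the name of the list and were higher in males. Fmo5 had 3.04, 2.76, 3.33 and 2.22 TPM in males and 0.137, 0.125, 0.297 and 0.154 TPM in females, with no overlap. Slc22a28 is 98.9% identical to Slc22a30 over the aligned part of the transcript, so these 2 genes may share reads.

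**Figure D2:**
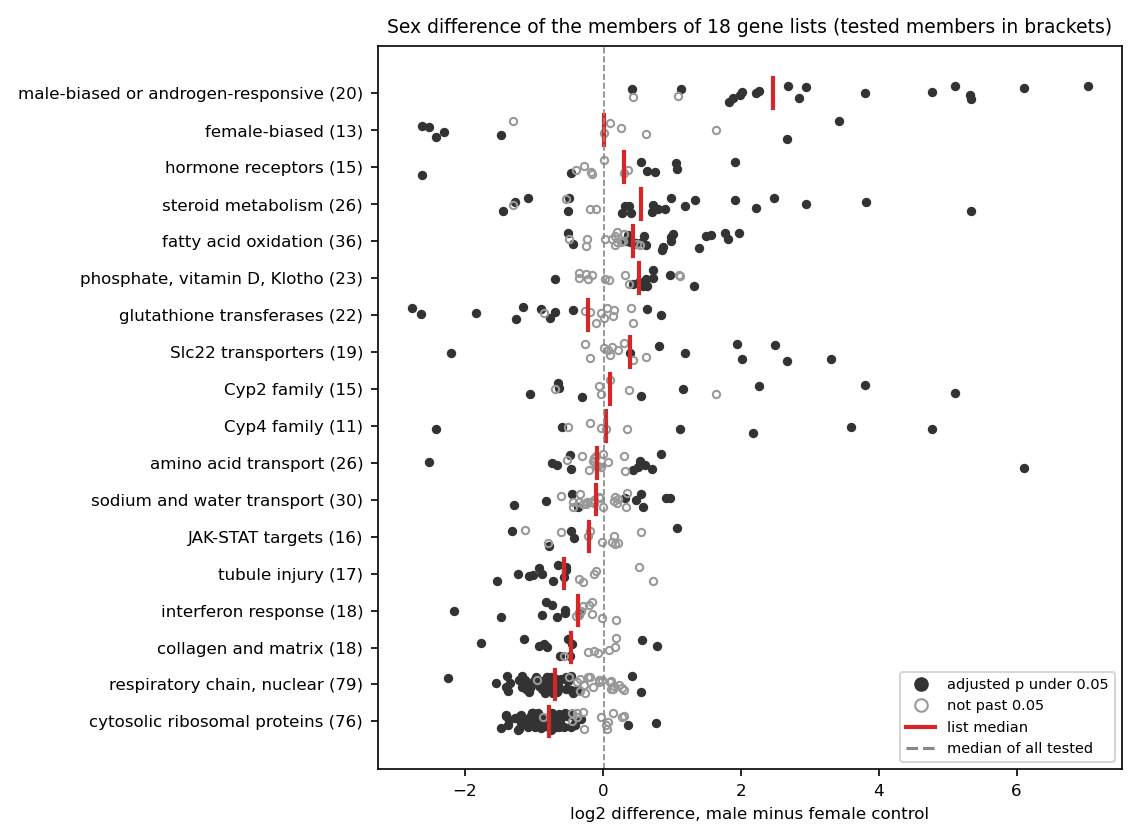
Log2 differences of male minus female controls for the members of each gene list, 1 point per gene, filled where adjusted p is under 0.05, with the list median as a red bar and the median of all genes as a dashed line. The androgen list sits far to the right, with a median of 2.47, and the ribosomal protein and respiratory chain lists sit to the left, with medians of -0.78 and -0.70. The lists were chosen with earlier results of these data known.

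Genes of steroid synthesis and inactivation were mostly higher in males, 17 of 26 tested, with 5 lower (median 0.56). Over all genes tested, 22.3% were higher and 17.9% lower. Akr1c14, a 3-alpha-hydroxysteroid dehydrogenase, had 5.16, 7.36, 11 and 8.06 TPM in males and 1.47, 1.4, 2.92 and 0.405 TPM in females (2.49 ± 0.63, adjusted p = 0.00603). The sexes did not overlap. Hsd17b11, a 17-beta-hydroxysteroid dehydrogenase gene, rose by 2.22, Hsd11b1, which regenerates active glucocorticoid, by 1.20, and Srd5a1, which makes dihydrotestosterone, by 0.81 on the log2 scale (adjusted p = 9.78e-06, 0.00674 and 9.15e-05). Hsd11b2, which inactivates glucocorticoid in the collecting duct, was lower in males at a log2 difference of -0.49, and so was Hsd17b14 at -1.45 (adjusted p = 0.0055 and 0.00181). The count of higher members was 9 with a filter of 1 TPM and 8 with heterozygous controls alone.

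Drug-metabolising families split into members high in either sex. Along chromosome 1, Ugt1a5, Ugt1a2, Dnajb3 and Ugt1a1 lay in a row of adjacent called genes, all lower in males with log2 differences of -5.14 to -1.16. Ugt1a7c of the same locus was higher in males (2.37, adjusted p = 0.00132). On chromosome 5, Ugt2b5, Ugt2b37 and Ugt2b38 were all higher in males, by 1.34 to 5.34. Over the aligned transcript, Ugt2b38 is 95.5% identical to Ugt2b5 and Ugt2b37 93.2% identical to Ugt2b38, so these genes may share reads. The UGT and sulfotransferase genes together counted 5 higher and 6 lower of 17 tested, and 6 and 4 on unscaled values. Over all genes tested, 22.3% were higher and 17.9% lower. On chromosome 9, Gsta4, Gsta1, Gsta5 and Gsta2 were all lower in males, at -2.77 to -1.26, and the glutathione transferases counted 2 higher and 9 lower of 22. Gsta1, Gsta2 and Gsta5 have copies of 97.2% to 99.5% identity, so their separate values are uncertain. On chromosome 6, the N-acetyltransferase genes Nat8f5, Nat8 and Nat8f2 were higher in males, by 1.83 to 3.49, of which Nat8f5 lost its call with array weights.

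Cytochromes of family 2 counted 5 higher and 4 lower of 15 tested, and those of family 4 counted 4 higher and 2 lower of 11, where 22.3% of all genes tested were higher and 17.9% lower. Carboxylesterases had 3 higher and 0 lower members of 8, among them Ces1g (2.88) and Ces2c (2.39) besides Ces1f. Of the 4 medium-chain acyl-CoA synthetases tested, 3 were higher, namely Acsm3, Acsm2 (1.89) and Acsm5 (1.21).

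Carriers of organic anions and cations leaned to males. In family 22, 8 of 19 tested were higher and 1 lower, against 22.3% and 17.9% of all genes tested, with a median of 0.40. Slc22a6, the basolateral organic anion transporter OAT1 that takes up drugs and uraemic toxins, had 65.4, 45.4, 70.1 and 55.6 TPM in males and 19.6, 15.3, 14.2 and 9.97 TPM in females (2.02 ± 0.29, adjusted p = 1.33e-04). Slc22a12, the urate transporter URAT1, had 161, 137, 137 and 115 TPM in males and 34.8, 28.7, 19.5 and 17.1 TPM in females (2.50 ± 0.26, adjusted p = 1.33e-05). All male libraries exceeded all female libraries for both carriers. Slc22a2, the cation carrier OCT2, rose by 1.20 (adjusted p = 0.00446). Slc22a8, the related anion carrier OAT3, did not pass (0.43, adjusted p = 0.203). Slc22a29 was lower in males at a log2 difference of -2.21 (adjusted p = 1.22e-07); it has a copy of 96.8% identity, Slc22a27. Among transporting polypeptides and ABC exporters, 3 were higher and 3 lower of 17, near the shares over all genes.

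Amino acid carriers were split, 7 higher and 5 lower of 26, which is near the shares over all genes tested (22.3% and 17.9%). Their extremes were Slc7a13 and Slc7a12, the close relatives described above. The cystine carrier subunit gene Slc3a1 rose by 0.54 (adjusted p = 0.0015). Of 16 genes of glucose uptake and production, 7 were higher and 2 lower (median 0.33). Pcx, pyruvate carboxylase, had 3.52, 2.93, 4.79 and 3.27 TPM in males and 1.6, 1.31, 1.63 and 1.72 TPM in females, and Fbp1, fructose bisphosphatase, had 26.4, 22.2, 29.2 and 29.2 TPM in males and 19, 12, 16.8 and 7.57 TPM in females. Their log2 differences were 1.15 ± 0.17 and 1.02 ± 0.23 (adjusted p = 1.40e-04 and 0.0027). Neither gene overlapped between the sexes. Others called higher included Pck1, G6pc, Slc37a4 and Slc5a12, and each of these 4 lost its call when 1 or more single control libraries were left out. The sodium-glucose cotransporter genes Slc5a2 and Slc5a1 did not pass, at 0.07 and 0.30 (adjusted p = 0.856 and 0.264). Without female control 3, which was low for Slc5a2, that gene's difference was -0.30 (adjusted p = 0.217).

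Of 23 tested genes of phosphate, vitamin D and Klotho handling, 11 were higher and 1 lower in males (median 0.53). Over all genes tested, 22.3% were higher and 17.9% lower. Besides Kl, those higher included the FGF23 receptor gene Fgfr4 (0.97), the parathyroid hormone receptor gene Pth1r (0.65), the calcium-sensing receptor gene Casr (0.73) and the phosphate exporter gene Xpr1 (0.63), as log2 differences. The others called higher were Cubn (0.73), Slc9a3r1 (0.60), Slc20a2 (0.59), the vitamin D receptor gene Vdr (0.55), Pdzk1 (0.53) and the calcium channel gene Trpv5 (0.44); Vdr and Trpv5 each lost the call when 1 or more single control libraries were left out. Fgfr4 had 2.07, 1.73, 2.27 and 2.05 TPM in males and 1.37, 1.28, 0.426 and 1.18 TPM in females, apart in all libraries. The main phosphate cotransporter gene Slc34a1 did not pass, with 181, 139, 177 and 152 TPM in males and 147, 148, 88.9 and 144 TPM in females (0.32 ± 0.15, adjusted p = 0.0988). The sexes overlapped, and female control 3 was lowest. Cyp27b1, which activates vitamin D, differed by 1.12 ± 0.48 and did not pass either (adjusted p = 0.075). The count of higher members was 7 with a filter of 1 TPM and 7 with heterozygous controls alone.

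Along the sodium-handling tubule 6 of 30 tested genes were higher and 4 lower, also near the shares over all genes. Slc12a1, the furosemide-sensitive cotransporter NKCC2 of the thick ascending limb, had 7.71, 9.97, 8.5 and 8.77 TPM in males and 17.6, 16.6, 13.9 and 14.3 TPM in females (-0.83 ± 0.13, adjusted p = 1.93e-04). The male values lay below all female values. Aqp1, the water channel of proximal tubule and thin limb, rose by 0.98 and the sodium-proton exchanger gene Slc9a3 by 0.48 (adjusted p = 6.15e-04 and 0.00479). The thiazide-sensitive cotransporter gene Slc12a3 did not pass (-0.24, adjusted p = 0.144). In the renin-angiotensin system, 4 of 10 genes were higher and 0 lower, where 22.3% of all genes tested were higher and 17.9% lower. Ace, which makes angiotensin II, had 6.37, 6.4, 7.72 and 7.21 TPM in males and 1.99, 1.67, 1.5 and 1.25 TPM in females (2.06 ± 0.26, adjusted p = 5.43e-05). All 4 males exceeded all 4 females for Ace. Ren1, encoding renin, differed by -1.13 ± 0.49 and did not pass (adjusted p = 0.0794).

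Fatty acid oxidation leaned to males, with 20 of 36 tested genes higher and 2 lower (median 0.44). Over all genes tested, 22.3% were higher and 17.9% lower. The largest differences included peroxisomal enzymes: Crot, the carnitine octanoyltransferase (1.98), Ehhadh (1.77) and Acox3 (1.50), together with the acyl-CoA thioesterase Acot12 (1.58), on the log2 scale. Mitochondrial Cpt1a, the carnitine palmitoyltransferase that admits fatty acids, rose by 0.99 (adjusted p = 2.19e-04), and the master regulator gene Ppara did not pass (0.31, adjusted p = 0.247). Cholesterol synthesis was mixed, 7 higher and 2 lower of 21. Idi1, the isopentenyl diphosphate isomerase gene, rose by 1.78, while Fdps, encoding farnesyl diphosphate synthase, was lower at a log2 difference of -0.87 (adjusted p = 5.33e-04 and 5.99e-04). Of 13 polyamine genes, 3 were higher and 1 lower, a share of higher genes near that of all genes; Arg2, a mitochondrial arginase, was lower at a log2 difference of -1.35 (adjusted p = 2.66e-04).

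Respiratory chain and ribosome went the opposite way, where 17.9% of all genes tested were lower in males. Of 79 tested nuclear genes of the respiratory chain, 55 were lower and 2 higher in males (median -0.70), and of 76 cytosolic ribosomal protein genes 60 were lower and 2 higher (median -0.78). Ndufa5, a subunit of complex I, had 11.8, 9.45, 7.96 and 8.84 TPM in males and 18.5, 24.3, 43.2 and 30.0 TPM in females (-1.54 ± 0.22, adjusted p = 1.30e-04). Rps27a, which encodes a ubiquitin and ribosomal protein fusion, had 11.6, 11.7, 9.95 and 9.32 TPM in males and 18.9, 20.1, 77.2 and 25.8 TPM in females (-1.47 ± 0.31, adjusted p = 0.00207). Neither gene overlapped between the sexes, and female control 3 was the highest library for both. Ndufs1, a large subunit of complex I, was higher in males by 0.55 (adjusted p = 0.00581).

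The sex difference moved with transcript length over all genes. With genes put into 10 bins of equal size by transcript length, the bin of the shortest transcripts had a median length of 892 bases. In that bin the median log2 difference was -0.39 and 42.9% of genes were lower in males. In the bin of the longest transcripts, of median length 7778.5 bases, the median was 0.13 and 12.2% were lower. The Kl/Kl animals had medians of -0.36 and 0.14 in the same bins. With each library's trend on transcript length and GC content removed, 28 respiratory chain genes were lower and 6 higher of 78 (median -0.25), and 37 ribosomal protein genes were lower and 6 higher of 76 (median -0.40). On unscaled values 35 and 36 were lower. The androgen list kept a median of 2.49. The part of library preparation and RNA quality in the length trend was not tested.

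**Figure D3:**
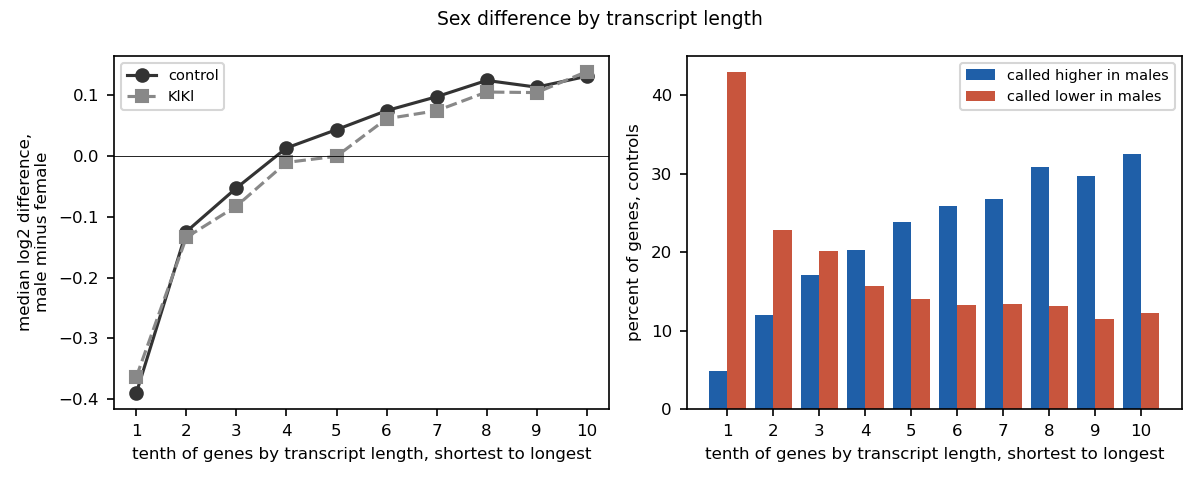
Median log2 difference of male minus female animals by bin of transcript length, from shortest to longest, in control and in Kl/Kl animals (KlKl) at left, and the percent of genes called in each direction in controls at right. In the shortest bin the control median is -0.39 and in the longest 0.13, and the Kl/Kl medians of -0.36 and 0.14 run beside them.

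Of 17 tested genes linked to tubule injury and repair, 11 were lower and 0 higher in males (median -0.56), where 17.9% of all genes tested were lower. Spp1, which encodes osteopontin, had 85.7, 108, 67 and 103 TPM in males and 284, 237, 232 and 284 TPM in females, far apart (-1.53 ± 0.18, adjusted p = 3.45e-05). Vim, the intermediate filament vimentin, was lower at a log2 difference of -1.07 and so was Sox9, a transcription factor of repairing tubules, at -0.89 (adjusted p = 2.33e-05 and 0.0137). Havcr1, which encodes the injury protein KIM-1, did not pass (0.53, adjusted p = 0.117). Of 18 interferon-induced genes 9 were lower and 0 higher in males (median -0.36), led by Gbp3 (-2.15, adjusted p = 2.68e-04), a guanylate-binding protein gene, and Ifit1 (-1.47, adjusted p = 0.00136). Gbp3 had 0.539, 0.508, 0.317 and 0.421 TPM in males and 2.28, 2.22, 4.37 and 1.24 TPM in females, without overlap. In antigen presentation, 3 of 16 genes were lower, Psmb9 (-0.89), Psmb8 (-0.73) and B2m (-0.63), and 0 higher, a share of lower genes near that of all genes. On unscaled values that list had 1 lower and 2 higher (median 0.26), and with the trend on length and GC removed B2m differed by -0.13 (adjusted p = 0.46). The complement list had 6 lower and 2 higher of 16, and 2 and 2 on unscaled values. On unscaled values the lower members were 3 of the injury and 2 of the interferon genes, and with heterozygous controls alone they were 5 and 4.

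Of 18 collagen and matrix genes, 9 were lower and 2 higher in males (median -0.46), where 17.9% of all genes tested were lower and 22.3% higher. Mgp, an inhibitor of calcification, had 9.51, 12.9, 7.18 and 14.8 TPM in males and 37.4, 34.1, 46.3 and 30.3 TPM in females (-1.77 ± 0.24, adjusted p = 9.11e-05), and Col1a2, a fibrillar collagen chain, was lower at a log2 difference of -1.15 (adjusted p = 1.33e-04). The basement membrane collagen gene Col4a3 was higher in males by 0.78 (adjusted p = 0.00636). Of 9 fibroblast and pericyte markers 7 were lower and 0 higher, and their summed level was 5.12 to 7.25 TPM in males and 9.84 to 12.2 TPM in females, without overlap. Dcn, a defining marker of fibroblasts, had 0.811, 1.05, 0.737 and 1.16 TPM in males and 1.41, 1.38, 3.01 and 1.93 TPM in females, and the sexes did not overlap. On unscaled values 5 matrix genes and 3 fibroblast markers were lower.

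Other cell types were compared by their marker lists, where 22.3% of all genes tested were higher and 17.9% lower in males. In every marker sum given here, genes of short genomic span weigh more, because the deposited TPM divide by that span. Acy3 spans 3439 bases and Atp11a 111716 bases. A sum therefore compares libraries for that weighted mix of genes and does not measure the amount of a cell type. Markers of the last proximal segment summed to 394 to 545 TPM in males and 69.3 to 152 TPM in females, and 3 of 7 were called higher, Slc7a13, Acy3 (2.29) and Atp11a (2.03). Acy3 alone, at 403 ± 73.5 TPM in males and 86 ± 33.8 TPM in females (SD, n = 4 each), made up most of the sums, which averaged 475 TPM in males and 114 TPM in females. The other markers of that segment did not pass, among them Slc22a7 (0.63, adjusted p = 0.64) and Slc5a10 (0.32, adjusted p = 0.251). Markers of the middle segment summed to 111 to 202 TPM in males and 38.4 to 55.6 TPM in females, with Cyp2e1 and Slc22a6 as the 2 called of 5. Markers of the proximal tubule as a whole overlapped, with 1280 to 1722 TPM in males and 968 to 1723 TPM in females. Smooth muscle markers summed to 7.21 to 9 TPM in males and 9.11 to 15.9 TPM in females, with 3 of 6 called lower. Podocyte markers summed to 22.8 to 25.9 TPM in males and 31.7 to 34.5 TPM in females, with 2 of 7 called lower and a median log2 difference of -0.09. Most of the gap between the podocyte sums, which averaged 24.1 TPM in males and 33.2 TPM in females, came from Cdkn1c (means of 11.3 and 19.2 TPM). On unscaled values 2 podocyte markers were called higher and 0 lower. Macrophage markers overlapped, with 34.3 to 48.3 TPM in males and 38.3 to 46.5 TPM in females, and 1 of 10, C1qa, was called lower, a call lost with heterozygous controls alone, with array weights and with the length and GC trend removed. The exact permutation test of a sum reached p = 0.0286, the smallest that 4 against 4 allows, for each list without overlap, and p = 0.0653 after adjustment over 32 quantities, so 0 of them passed.

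Among defining markers of tissues that dissection could carry over, Cyp11b1 of the adrenal cortex had 0 reads in males and 0 to 2 in females, and Ckm of skeletal muscle had 0 in males and 0 to 5 in females. Star of steroid-making cells had 60 to 99 reads in males and 31 to 60 in females, and Alb of liver 28 to 85 in males and 29 to 171 in females. Adipoq of fat had 3 to 96 reads in males and 1 to 32 in females, and Upk3a of urothelium 47 to 75 in males and 41 to 86 in females. These reads are not corrected for depth, which was greater in males. After rescaling, Star differed by -0.07, Alb by -0.67 and Adipoq by 0.08 on the log2 scale (adjusted p = 0.757, 0.101 and 0.902 by limma). Upk3a was called lower in males at -0.72 (adjusted p = 0.0354 by limma), a call lost under 9 of 32 alternatives. Adrenal markers summed to 0.514 to 0.607 TPM in males and 0.773 to 0.97 TPM in females, without overlap. Only 2 of the 9 listed were tested, Star and Akr1b7. The gap came from Akr1b7, with means of 0.188 TPM in males and 0.487 TPM in females. Pancreas or liver markers summed to 5.02 to 8.18 TPM in males and 9.31 to 14.2 TPM in females, also without overlap, and 1 of 4 tested was called lower. Of 9 listed markers of the male or female reproductive tract, 1 was tested. It had 0.0570 to 0.0717 TPM in males and 0.143 to 0.257 TPM in females, without overlap. That marker was called lower in males, at a log2 difference of -0.76, and kept the call under all 32 alternatives that tested it. The part of these tissues in the results was not tested. Cd3e of T cells had 2 to 9 reads in males and 3 to 11 reads in females, and Cd79a of B cells 5 to 8 reads in males and 2 to 5 reads in females. After rescaling, the sexes overlapped for both genes. The kidney markers Umod (109.5 to 125 TPM in males, 81.3 to 117 TPM in females) and Slc34a1 were present in every library.

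**Figure D4:**
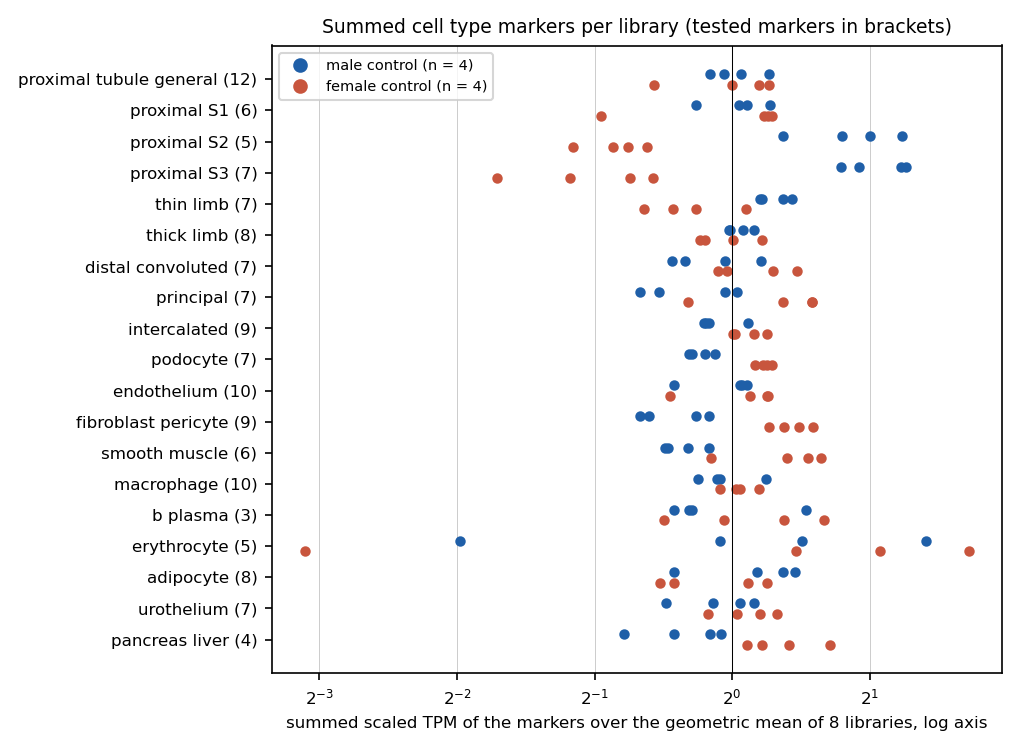
Summed TPM of cell type markers in each control library, divided by the geometric mean of the 8 libraries, on a log axis, with male controls above female controls. Summed last-segment proximal markers (S3) were 394 to 545 TPM in males and 69.3 to 152 TPM in females, mostly from Acy3, and 4 of the 7 markers did not pass; macrophage points overlap. Genes of short genomic span weigh more in each sum.

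The same comparison in Kl/Kl animals used other libraries, but it came from the same fit with 1 shared estimate of spread per gene. It called 3207 genes (27.8% of those tested), 1740 higher and 1467 lower in males. Leaving out female control 3 raised that count to 4432, so the calls in controls and in Kl/Kl animals are not independent. Sex and sequencing run could not be told apart in either. Of the 4639 genes called in controls, 4585 (98.8%) had the same direction in Kl/Kl animals, and 2788 were also called there in that direction, which was 60.1% of the control calls and 86.9% of the Kl/Kl calls. Among genes with a difference of at least 1, the median was 1.28 in controls and 1.00 in Kl/Kl animals for those higher in males, and -1.23 and -0.94 for those lower. These genes were chosen by the size of their difference in the controls. The test of the difference between the sex effects called 0 of 11516 genes with limma (0%), with 304 at an unadjusted p under 0.05 and a smallest adjusted p of 0.221. When 1 library was left out, the count was 1 without female control 1 (H4c12), without female control 4 (Slc7a12) and without male Kl/Kl 3 (Rarres2).

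Prlr had a log2 difference of -2.62 in controls and -0.71 in Kl/Kl animals (unadjusted p of the difference = 7.56e-04, adjusted 0.968 by limma). Of 620 genes with a difference of at least 1, 616 kept their direction. The 4 that did not were Mgst1, a microsomal glutathione transferase gene (-1.15 in controls, 0.16 in Kl/Kl animals, adjusted p of the difference = 0.221), Slc7a12 (-2.52 and 0.14, adjusted p = 0.322), Apoc1 (-2.22 and 0.04, adjusted p = 0.971) and H4c12 (-2.03 and 1.66, adjusted p = 1.0). In Kl/Kl animals the log2 differences of genes high in male controls were 4.95 (Acsm3), 5.35 (Slc7a13), 4.54 (Cyp4b1) and 3.22 (Cyp2e1). Cyp4a12a had 3.59 in controls and 1.11 in Kl/Kl animals (adjusted p of the difference = 1).

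**Figure D5:**
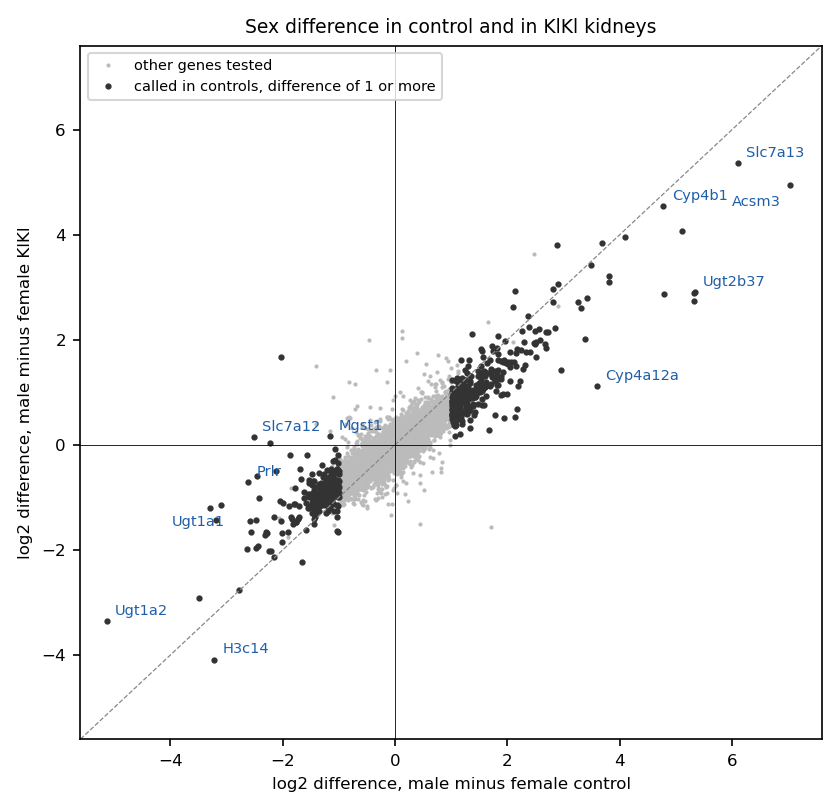
Log2 difference of male minus female animals in Kl/Kl kidneys against that in control kidneys, 1 point per tested gene, dark where the control difference was called and at least 1 in either direction, grey otherwise; the dashed line marks equal differences. Of the 4639 genes called in controls, 4585 lie in the quadrants of equal direction, and Slc7a12 lies at -2.52 in controls and 0.14 in Kl/Kl animals.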

How the data were processed

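Polyadenylated RNA of whole kidneys was sequenced after a directional library preparation, per the labels' protocols. The software was Partek and the build mm39, per the submitters' processing notes; no source used here gives the aligner or the counting rule. The authors deposited 1 table of TPM for the 16 libraries, with 0 columns of other samples. Tested on the values, these TPM sum to 309446 per library and follow reads plus 0.0001 divided by the gene's genomic span, introns included, so reads are an inference; of values under 20 reads, 81.2% came out whole within 0.1. Floors and read numbers cover counting error only. A repeated Kl row was dropped. Libraries were rescaled by the median ratio over 13911 autosomal protein-coding genes.

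Limma 3.58.1 in R 4.3.3 was fitted to log2(TPM + 0.1), for genes with at least 0.1 TPM in at least 4 of 16 libraries, with 4 group means (12 residual degrees of freedom) and a mean-variance trend, so fold changes of low genes are understated. Limma's p-values were adjusted by the Benjamini-Hochberg method over all genes tested, at a threshold of 0.05. Summed levels were compared by exact two-sided permutation. The fit was tested on simulated data. The members, lists and alternatives were chosen with earlier results of these data known. Named are Kl, Esr1, Prlr and Ghr, the 15 called genes per direction with the largest difference, a mean of at least 1 TPM in the higher sex and no overlap (unnamed gene models left out), up to 4 called members of each list, and members given with their values; some genes that the rule names are not reported here. Further called members and the all-or-none genes Gm26377 and Gm44987 were chosen after their values were seen. Identity to the nearest copy was computed on transcripts.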

Additional observations from a re-analysis of the deposited data

Results flagged for a closer look

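In 326 groups of 4 libraries, a quantity or gene was checked for a library whose gap to the nearest other exceeded Dixon's critical share of the group's range, and 25 were found; chance gives about 1 in 20 groups. Of these, 12 fell on female control 3, which had the lowest depth. Its nuclear ribosomal RNA made up 4.82% of reads, against 0.335% to 0.818% in the other females, and 7.06% of TPM, against 0.484% to 1.12%. Its summed first-segment proximal markers were 36.9 TPM, against 83.6 to 87.0 TPM. On the scale of log2(TPM + 0.1), female control 3 was low for the phosphate carrier gene Slc34a1 (6.48, against 7.17 to 7.21), the glucose carrier gene Slc5a2 (4.53, against 5.97 to 6.07), Slc22a8 (2.49), Hnf4a (1.69), Fgfr4 (-0.93) and Acsm5 (0.035). It was high for Prlr (1.60), Acot12 (0.60) and Gusb (0.49). The part of RNA quality in these values was not tested.

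Male control 3, a wild-type animal, was high for Slco1a1 (3.15), Pzp (1.15) and the B and plasma cell markers (1.33 TPM), and low for Cbr1 (2.65, against 2.80 to 2.82). Male control 4 was high for the STAT5-induced genes Cish (2.63, against 0.34 to 0.61 in the other males) and Socs2 (-0.016, against -1.03 to -0.89). Female control 4 was low for Slc22a2 (0.81) and Cyp7b1 (-3.22) and high for Acox3 (1.56). Male control 2 had the highest intercalated cell markers (20.1 TPM, against 16.1 to 16.5 TPM in the other males), and male control 1 the lowest endothelial markers (11.5 TPM, against 16.1 to 16.7 TPM). Male control 1 was high for Slc9a3r1 (4.02, against 3.74 to 3.75 in the other males), and female control 1 was high for the liver marker Alb (-0.50, against -1.81 to -1.65 in the other females), both on the scale of log2(TPM + 0.1).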

How the results depend on the processing

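The count of genes called between male and female controls was within 1.5 times of 4639 under most alternatives, and fell to 2566 (1406 higher and 1160 lower in males) with a filter of 1 TPM, 2525 (1474 and 1051) with heterozygous controls alone, 2870 (1649 and 1221) at an adjusted p under 0.01 and 620 (342 and 278) at a log2 difference of at least 1. Fewer genes were tested in the first of these, and fewer males in the second. With no rescaling it was 5427, 4798 higher and 629 lower. Leaving out 1 library gave 3761 (without male control 3) to 5000 (without male Kl/Kl 3), with 2108 to 2774 higher and 1653 to 2283 lower. The replicate block gave 4368, and same-numbered males and females correlated at -0.22, -0.12, -0.14 and -0.07 in their deviations, so the numbers do not pair the animals. The count in Kl/Kl animals, 3207, was 6087 with no rescaling, 1866 with a filter of 1 TPM, 5994 with array weights, and 2112 (without female Kl/Kl 2) to 4432 (without female control 3) with 1 library left out. The difference of the sex effects called 0 genes, except 1 with heterozygous controls alone (Cyp4a12b) and 0 to 1 with 1 library left out.

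Members higher in males were, for steroid metabolism, 9 with a filter of 1 TPM, 8 with heterozygous controls and 14 to 17 with 1 library left out; and for phosphate and vitamin D, 7, 7 and 9 to 12. Members lower in males with no rescaling were 35 of the respiratory chain, 36 of the ribosomal proteins, 3 of injury, 2 of interferon, 5 of matrix and 3 of the fibroblast list. Freed of the trend on length and GC, a setting chosen after seeing the data, 28 respiratory chain and 37 ribosomal protein genes were lower. With heterozygous controls, 29 ribosomal protein, 5 injury and 4 interferon genes were lower. Array weights left 5 interferon genes, control libraries alone 5 matrix genes, a filter of 1 TPM 5 matrix and 4 fibroblast genes, and scaling to the same total 4 fibroblast genes. Leaving out 1 library gave 7 to 11 injury genes (7 without male control 3), 7 to 9 interferon genes, 6 to 10 matrix genes, 4 to 8 fibroblast genes (4 without male control 1 or female control 1), 52 to 56 respiratory chain genes, 54 to 63 ribosomal protein genes, 8 to 10 glutathione transferases, 17 to 19 androgen-responsive genes and 17 to 23 fatty acid oxidation genes. The causes of these shifts were not tested.

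Of 191 called genes examined singly, 125 kept their call and direction under every alternative that tested them, which for 100 of them was all 33; the others did not pass the filter of 1 TPM or of fewer libraries and had 26 to 32. Another 66 lost the call under 1 or more, and 0 of these 191 reversed. Of 21 genes not called, 15 passed under 1 or more alternatives, among them Cish under 9, Kap under 5 and Slc12a3 under 2 (-0.41, adjusted p = 0.00955, with the length and GC trend removed). The reversals were among genes not called: Slc5a2 had -0.20 with array weights, -0.11 with age as a covariate and from -0.30 (without female control 3) to 0.21 (without female control 4) with 1 library left out, Eef1a1 from -0.026 to 0.15, Adipoq -0.25 with heterozygous controls alone, -0.092 with limma voom and from -0.37 to 0.33 with 1 library left out, Star 0.066 with heterozygous controls alone, and with no rescaling Star had 0.20, Nr3c1 0.14 and Slc12a3 0.10. Depth in the female libraries limits genes of few reads.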

Other observations

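The X-linked genes Eif2s3x, Kdm6a and Kdm5c, known to escape inactivation and outside the autosomal comparison, did not all lie on the same side. Eif2s3x had 3.30, 3.27, 3.09 and 3.34 TPM in male and 4.71, 3.98, 5.79 and 3.98 TPM in female controls, and Kdm6a had 0.124, 0.157, 0.149 and 0.134 TPM in male and 0.207, 0.166, 0.217 and 0.200 TPM in female controls. Neither gene overlapped between the sexes. Kdm5c had 0.872, 0.955, 0.941 and 0.719 TPM in male and 0.709, 0.724, 0.355 and 0.750 TPM in female controls, and the groups overlapped.

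Adjacent homeobox genes of the Hoxc cluster, Hoxc9, Hoxc8 and Hoxc6 on chromosome 15, were all called lower in males, with log2 differences of -1.71 to -1.13. These genes, chosen after their values were seen, pattern the body axis. A second run of 3 neighbours, Ubl5b, Ubl5c and Eif1ad3 on chromosome 12, was called higher in males by 1.30 to 2.13. Ubl5b and Ubl5c had identical differences (1.30) and adjusted p (0.0061 by limma), so they do not count as separate measurements.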
